A study of Saccharomyces cerevisiae with 6 samples.

Results

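The cytosolic ribosome of budding yeast, Saccharomyces cerevisiae, is built from a small (40S) and a large (60S) subunit, and its proteins are encoded by the 137 genes described here. The members were all genes of the R64 gene table whose symbol starts with RPL or RPS and a digit, together with the genes of the ribosomal stalk, RPP0, RPP1A, RPP1B, RPP2A and RPP2B. They are 137 of 6002 protein-coding genes on the 16 nuclear chromosomes and comprise 56 genes of the 40S subunit, 76 of the 60S subunit and 5 of the stalk. Of them, 118 form 59 pairs of paralogs (an A and a B copy) and 19 are single copies. An intron between start and stop codon was assigned to 89 genes and none to 48.

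Ribosomal protein genes are among the most heavily transcribed genes of a growing yeast cell, and their transcription is coordinated with growth. In yeast, Rap1 binds most of their promoters and recruits Fhl1, a protein with a forkhead domain, and its co-activator Ifh1, while TOR signalling adjusts their activity through Ifh1 and Sfp1. Rpd3 is a histone deacetylase that acts as a corepressor in several complexes. Fkh1 is a forkhead transcription factor that also binds near replication origins.

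The series title names Rpd3, single-copy origins, the ribosomal DNA (rDNA) array and Fkh1, and the comparison addressed how binding of a FLAG-tagged protein, which the labels do not name, depends on RPD3. Chromatin immunoprecipitation with the anti-FLAG M2 antibody was sequenced from 3 samples of strain OAy1102, labelled WT, and 3 samples of strain YHy17, labelled rpd3Δ. All 6 cultures were grown at 23 °C, arrested in G1 by α-factor, a mating pheromone, at about 5 nM for about 4 h, and fixed with 1% formaldehyde. Nothing states that the 3 samples of a genotype are separate cultures, so p-values reflect only how far these samples scatter, and that scatter may be technical.

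The labels were checked on the deleted gene. Over RPD3 the signal was 0.744 to 0.921 times the mean outside the rDNA in the WT samples and 0.0737 to 0.114 times in the rpd3Δ samples. BAR1, the gene of the α-factor protease, was at 0 counts in each of the 6 samples. Summed counts outside the rDNA ran from 1868919 to 3728127 per sample. The rDNA held 36.9% to 49.5% of all counts in WT and 55.7% to 63.8% in rpd3Δ. Per sample, the upstream window of a ribosomal protein gene held between 65 and 4100 counts (median 252) and its gene body between 10 and 957 (median 229).

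Signal is given below as a level, the mean count per 50 bp bin of a window divided by the local background of the same sample. The local background is the median of smoothed bins in the surrounding 20 kb, so that a level of 1 equals the surroundings. No input library was analysed here, so a level cannot be set against unprecipitated DNA.

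The bodies of ribosomal protein genes, from start to stop codon, carried more signal than their surroundings in both genotypes. Their median level was 1.71, 1.76 and 1.55 in the WT samples, then 1.70, 1.62 and 1.56 in the rpd3Δ samples. All other protein-coding genes had medians of 0.982 to 0.991 in the 6 samples. A body level of at least 1.5 in all 6 samples was measured at 54 of 137 members, or 39.4%, where 5.79% of all genes reached it. Just inside this threshold lay RPL6B, with 1.52 in its lowest sample, and just outside it RPP2A, with 1.49. Upstream of the start codon the members stood apart less. Over the 1000 bp upstream, 29 of 137 members, or 21.2%, reached 1.5 in all 6 samples, beside 11.9% of all genes, and the median member level was 1.37 against 1.11 over all genes. The highest upstream position, smoothed over 11 bins, was at least 2 times the background in all 6 samples at 23 members, or 16.8%, beside 9.77% of all genes.

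The order of the zones was opposite to that of most genes. The gene body level exceeded the upstream level at 95 of 137 members (69.3%), where 37.1% of all genes showed this order. It was not particular to the members, as 21 of 26 other highly transcribed genes (80.8%), described below, had it too. By distance, the median member level averaged over the 6 samples was 1.26 from 1000 to 500 bp upstream. It was 1.48 in the last 250 bp before the start codon and 1.70 from 250 to 500 bp past it. In short members (the shortest has 78 bp) the last of these zones reaches beyond the stop codon. The other genes had 1.07, 1.13 and 0.989 in these zones. In the 500 bp after the stop codon the members had a median level of 1.65 and the other genes one of 1.11. The raised level of the members covered the coding part and the sequence beyond it. Of the members, 12 passed 1.5 in both windows, or 8.76%, beside 2.23% of all genes. They are 41.4% of the 29 upstream and 22.2% of the 54 gene bodies, where the same shares over all genes are 18.8% and 38.6%.

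**Figure D1:**
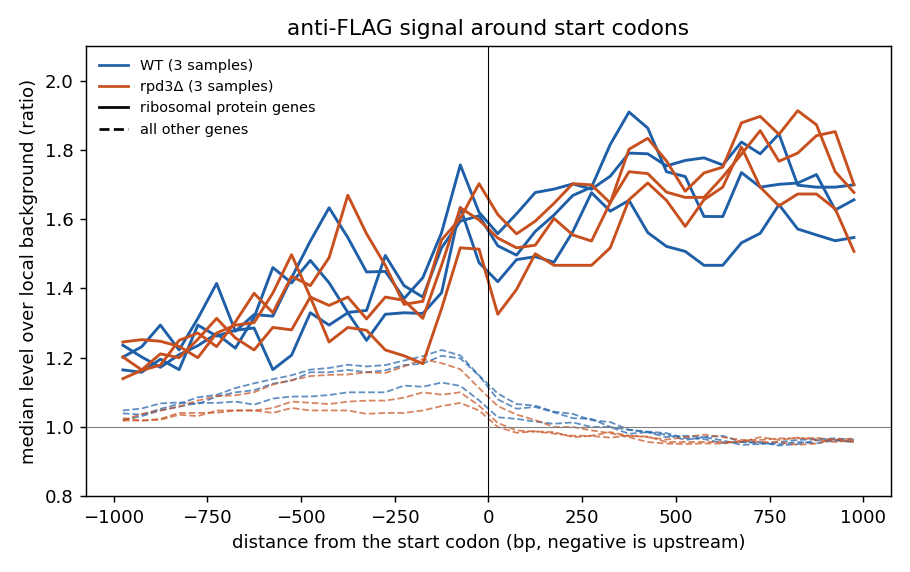
Median level over local background (ratio, vertical axis) by distance from the start codon (bp, horizontal axis) in each of 3 WT (blue) and 3 rpd3Δ (orange) samples, for the 137 ribosomal protein genes (solid) and all other protein-coding genes (dashed). In all 6 samples the solid lines climb from the upstream side across the start codon. On average they go from 1.26 between 1000 and 500 bp upstream to 1.70 between 250 and 500 bp downstream.

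Genes of heavy transcription showed a raised body level as well. In a list of 26 other highly transcribed genes, mainly of glycolysis and translation elongation, 22 had a body level of at least 1.5 in all 6 samples, and their median was 2.71. Upstream, 11 of them (42.3%) reached 1.5 in all 6 samples, beside 21.2% of the members. A smoothed upstream position of at least 2 times the background in all 6 samples was found at 12 (46.2%), beside 16.8% of the members. PDC1, which encodes pyruvate decarboxylase, had a mean body level of 7.21, and TDH3, a glyceraldehyde-3-phosphate dehydrogenase gene, one of 5.80. These examples were chosen after their values were seen, and no ribosomal protein gene reached either value. The 75 genes of mitochondrial ribosomal proteins, which make a separate ribosome, had a median body level of 1.03 and 2 of them reached 1.5. The part of transcription in the level of the gene bodies was not tested, since no expression was measured.

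Between the subunits the levels were close. The 40S genes had a median body level of 1.71 and 23 of 56 reached 1.5 in all samples, and the 60S genes had 1.65 and 30 of 76. Upstream the medians were 1.36 (12 of 56 genes) and 1.38 (17 of 76 genes). The stalk genes were lower, with 0 of 5 upstream and 1 of 5 over the body. By intron, the 48 genes without one had a median body level of 1.76, with 23 at 1.5 or more, and the 89 genes with one had 1.61, with 31 at 1.5 or more. Median gene lengths were 498 bp and 851 bp in these classes, so intron and length cannot be told apart here. Upstream medians were equal to the second decimal, 1.37 in both classes. The 19 single-copy genes had medians of 1.47 upstream and 1.81 over the body, and the 118 paired genes 1.36 and 1.61. How reads matching both copies were placed is not known, and its part in this difference was not tested. By upstream neighbour, the upstream median was 1.37 for 73 divergent genes, 1.33 for 56 tandem genes and 1.51 for 8 genes beside an RNA gene.

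**Figure D2:**
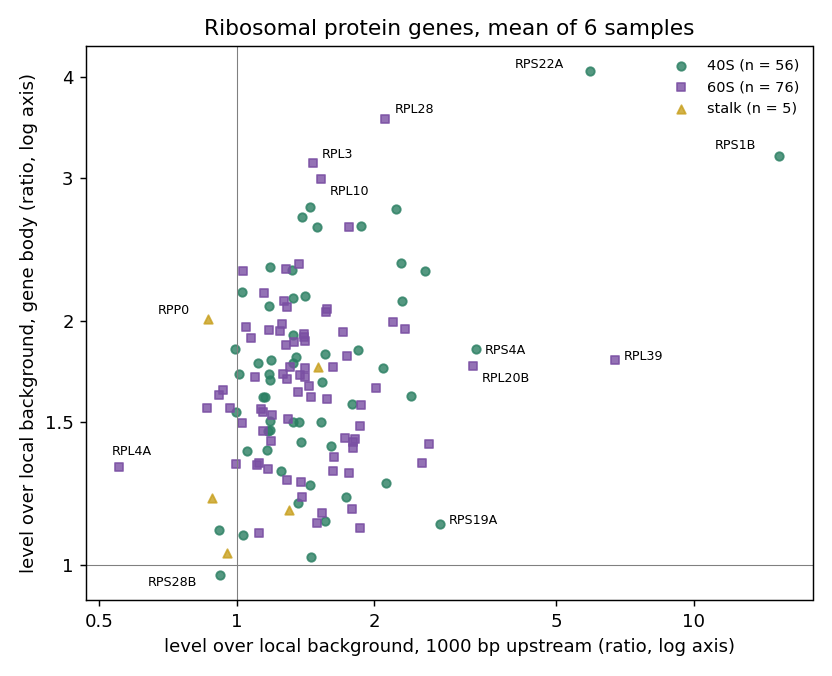
Mean level over 6 samples in the 1000 bp upstream (ratio, horizontal log axis) and over the gene body (ratio, vertical log axis) for 137 ribosomal protein genes, with circles for 40S, squares for 60S and triangles for stalk genes. RPS1B lies farthest right at 15.4, RPS22A highest at 4.06, and most points sit between 1 and 2 upstream and above 1 over the body.

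The highest upstream level belonged to RPS1B, which encodes a 40S protein and lies on chromosome XIII (YML063W, 146482 to 147249). It was 16.8, 20.1 and 13.6 in the WT samples, then 18.8, 12.8 and 10.3 in the rpd3Δ samples. The genotypes overlapped, and the first rpd3Δ sample lay above WT samples 1 and 3. The upstream neighbour is TEM1, the divergent gene of the mitotic exit GTPase, 605 bp away, so the window covers the interval between both genes and reaches into TEM1. The highest point, 22 times the background, was centred 475 bp before the RPS1B start codon, and so nearer to the start codon of TEM1. To which of both genes the site belongs was not tested.

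A further site was shared by a pair of members. RPL39, whose product lines the polypeptide exit tunnel (YJL189W, chromosome X, 75933 to 76474), and RPS22A, a 40S gene (YJL190C, 74910 to 75302), diverge from a 630 bp interval. RPL39 had upstream levels of 8.02, 7.69 and 5.39 in WT, against 7.59, 6.20 and 5.39 in rpd3Δ. RPS22A had 7.22, 6.85 and 4.57 in WT, against 6.79, 5.45 and 4.74 in rpd3Δ. Both series overlapped between genotypes, and since 630 bp are common to the windows, they are not separate observations. In all, 9 pairs of members had overlapping windows, among them the divergent pairs RPL13A and RPS16B, RPL13B and RPS16A, RPL24A and RPL30, and RPP2A and RPS15.

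The other members of the upper end were spread over the genome. RPS4A on chromosome X (YJR145C, 702027 to 703068) had 4.16, 3.60 and 2.83 in WT, against 4.16, 2.56 and 2.72 in rpd3Δ. RPL20B on chromosome XV (YOR312C, 900250 to 901194) had 3.47, 3.98 and 3.17 in WT, against 3.77, 2.91 and 2.43 in rpd3Δ. The next were RPS19A with a mean over 6 samples of 2.78, RPL26A with 2.63, RPS26B, whose product lies at the mRNA exit channel, with 2.58, RPL21B with 2.54 and RPS7A with 2.40. From RPS19A to RPS7A, the ranges over the 6 samples of neighbours in this order overlapped.

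The lower end held RPS28A with a mean upstream level of 0.913, RPP2B with 0.883, RPP0 with 0.866, RPL27A with 0.862 and RPL4A with 0.553. RPL4A, which encodes a protein of the exit tunnel wall (YBR031W, chromosome II, 300166 to 301254), had 0.525, 0.571 and 0.535 in WT, against 0.610, 0.553 and 0.526 in rpd3Δ. It was below its surroundings in all 6 samples.

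Over gene bodies RPS22A was highest, with 4.62, 4.33 and 3.77 in WT, against 4.19, 3.83 and 3.63 in rpd3Δ. Its coding part is 393 bp long, and the highest point of the interval shared with RPL39 lay 125 bp before its start codon. The part of that site in its body level was not tested. RPL28, the gene in which cycloheximide resistance mutations arise (YGL103W, chromosome VII, 310967 to 311927), had 3.67, 3.77 and 3.05 in WT, against 4.45, 3.09 and 3.27 in rpd3Δ. RPS1B had a mean body level of 3.19, RPL3, whose product lies near the peptidyl transferase centre, one of 3.13, and RPL10, whose product joins the 60S subunit late in the cytoplasm, one of 2.99. RPL28, RPL3 and RPL10 had upstream levels of 2.11, 1.47 and 1.53, so that their bodies stood above their upstream windows. At the lower end RPP1B had 1.04, RPS25B 1.02 and RPS28B 0.973. Bodies of near-identical paralogs may share reads. How reads with several matches were placed is not given in the sources used here, so body values of paired genes are uncertain as to copy.

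**Figure D3:**
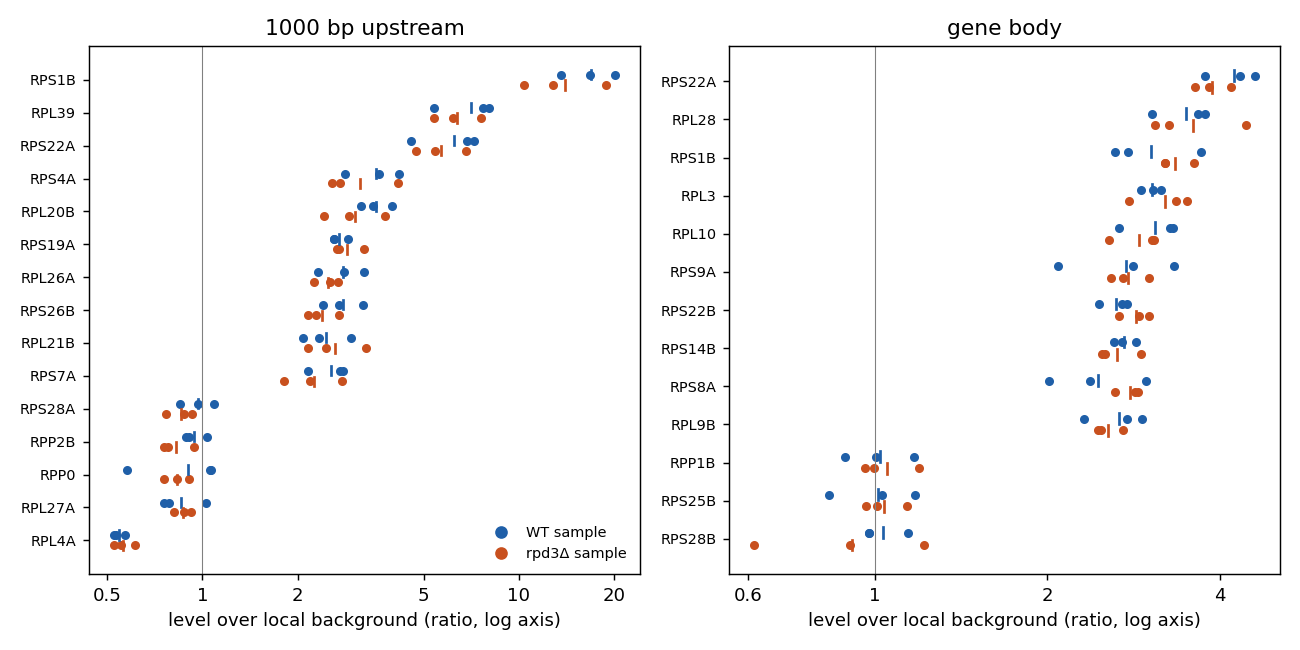
Level over local background (ratio, log axis) in each WT (blue) and rpd3Δ (orange) sample for the 10 highest and 5 lowest members upstream (left) and the 10 highest and 3 lowest over the gene body (right), with short bars at genotype means. Blue and orange points overlap at RPS1B, RPL39 and RPS22A on the left and at RPS22A and RPL28 on the right.

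The stalk proteins, which bind the elongation factors, form a small class of their own. RPP0, the base of the stalk (YLR340W, chromosome XII, 805887 to 806825), had upstream levels of 1.05, 1.06 and 0.58 in WT, against 0.909, 0.834 and 0.759 in rpd3Δ. Its body was at 1.88, 2.03 and 2.12 in WT, against 2.28, 1.93 and 1.82 in rpd3Δ, above the surroundings in all 6 samples. RPP2A had a mean of 1.5 upstream and 1.75 over the body. RPP1A had 1.30 and 1.17, RPP1B 0.953 and 1.04, and RPP2B 0.883 and 1.21. Of the 5, RPP0 thus had the highest mean body level and the lowest mean upstream level. Upstream its mean lay close to that of RPP2B (0.866 against 0.883), and its lowest value was the 0.58 of WT sample 3.

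Paralogs were also compared copy by copy. The median ratio of the higher to the lower copy was 1.24 upstream and 1.2 over the body, and it reached 1.5 at 12 of 59 pairs upstream and at 8 of 59 over the body. At 31 pairs the same copy was higher upstream in all 6 samples. RPS1B stood 11.6-fold above RPS1A, whose mean was 1.32, but the highest point of the RPS1B window lay nearer to the start codon of TEM1. RPL20B was 2.94-fold above RPL20A (1.12), RPS4A 2.82-fold above RPS4B (1.18), and RPS22A 2.66-fold above RPS22B (2.23). In each of these 4 pairs the order held in all 6 samples. RPL6A and RPL6B, both at 1.29, and RPS28A and RPS28B, at 0.913 and 0.919, were the closest pairs. Over the body the largest ratio was 2.14, for RPS10A (2.33) over RPS10B (1.09), with upstream levels of 1.18 and 1.03; this pair was chosen after its values were seen.

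**Figure D4:**
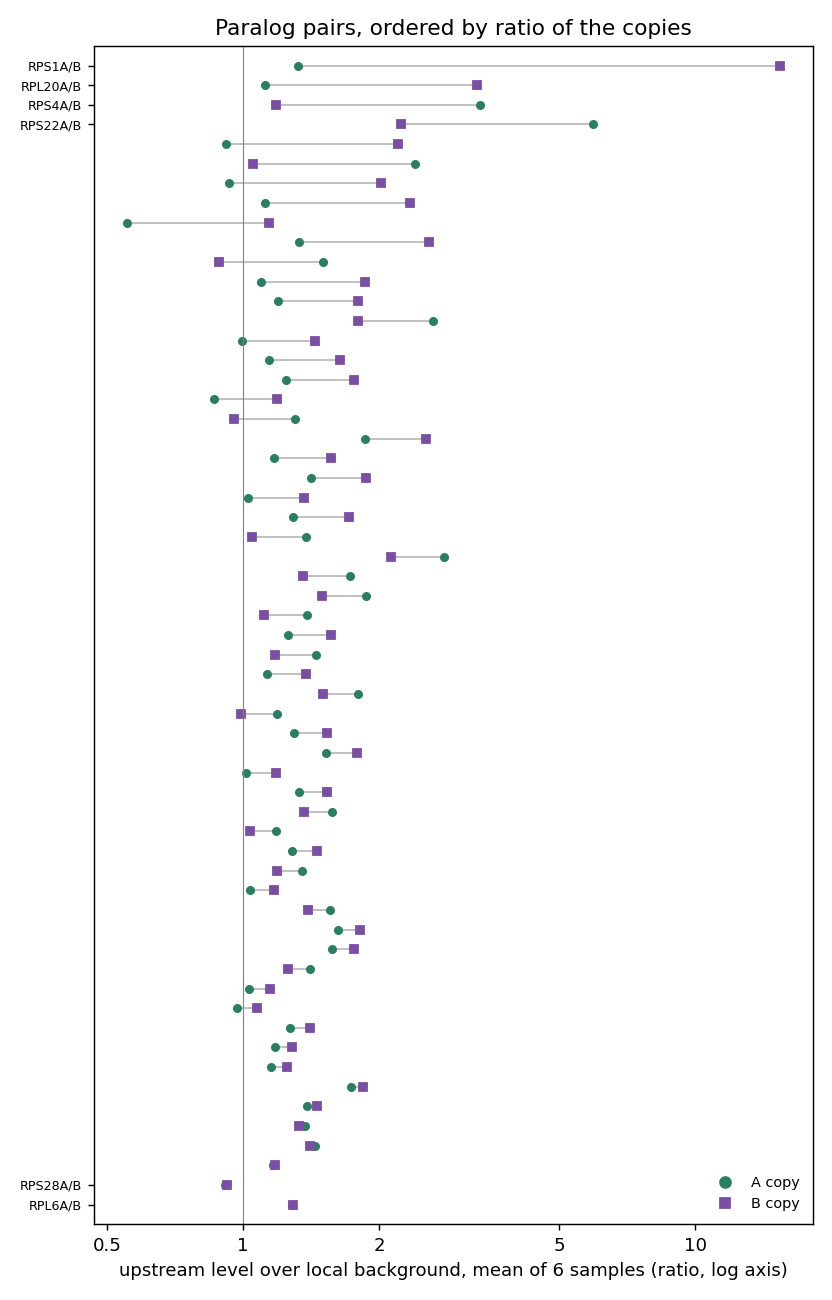
Upstream level over local background (ratio, log axis, mean of 6 samples) of the A copy (green circle) and B copy (purple square) of 59 paralog pairs, ordered from the largest ratio at the top, with the 4 most and 2 least different pairs labelled. The RPS1 pair spans 1.32 to 15.4, and the median ratio of all pairs is 1.24.

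Between genotypes few members passed the test. In either direction, 3 of 137 passed upstream (2.19%, beside 6.34% of all genes) and 4 over the body (2.92%, beside 7.49%). Counts were compared by edgeR's quasi-likelihood test over all genes, with library size set on 10 kb background bins and a Benjamini-Hochberg adjusted p under 0.05. Upstream, 3 members rose in rpd3Δ (2.19%, beside 2% of all genes) and 0 fell (beside 4.34% of all genes). Without WT sample 1, WT sample 2 or rpd3Δ sample 2, 0 members rose upstream. DESeq2 called 3 as higher and 0 as lower. At an unadjusted p under 0.05, 14 members were higher (10.2%, beside 6.73% of all genes) and 4 lower (2.92%, beside 12.9%). The median log2 fold change of rpd3Δ against WT was 0.02 for the members and -0.05 for all windows tested. Over the body, 4 members rose (2.92%, beside 4.35%) and 0 fell (beside 3.14%). Without WT sample 1 or WT sample 2, 2 members rose, and without rpd3Δ sample 2, 1 rose (RPS31). DESeq2 called 4 as higher and 0 as lower. At an unadjusted p under 0.05, 15 were higher (10.9%, beside 12.3% of all genes) and 3 lower (2.19%, beside 8.69%). The medians were 0.07 for the members and 0.01 for all genes. Log2 fold changes of the members ran from -0.40 to 0.55 upstream and from -0.65 to 0.56 over the body, with median standard errors of 0.14 and 0.13.

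All members that passed belong to chromosome XII, to its right arm, which carries the rDNA. RPS31, which encodes a 40S protein fused to ubiquitin (YLR167W, 498947 to 499405), lies 29.8 kb beyond the rDNA. It rose upstream by 0.55 on the log2 scale (SE 0.163, edgeR adjusted p = 0.0245) and by 0.56 over the body (SE 0.118, edgeR adjusted p = 0.00117). RPL37A (YLR185W, 522663 to 523288), 53.5 kb beyond it, rose by 0.50 upstream (SE 0.152, edgeR adjusted p = 0.0269) and 0.39 over the body (SE 0.119, edgeR adjusted p = 0.0312). RPL22A (YLR061W, 263194 to 263948), on the centromere side, rose upstream by 0.46 (SE 0.140, edgeR adjusted p = 0.0275). RPS22B (YLR367W, 856442 to 857317) and RPL31B (YLR406C, 931065 to 931755) rose over the body by 0.37 (SE 0.103, edgeR adjusted p = 0.0173) and 0.46 (SE 0.113, edgeR adjusted p = 0.00594).

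The local background of these genes rose as well, to different extents. At RPS31 the background averaged 14.3 scaled counts a bin over WT and 20.6 over rpd3Δ samples, which is a log2 ratio of 0.52, and at RPL37A the ratio was 0.47. The ratio was smaller than the change of the gene at RPL22A (0.29, against 0.46 upstream). This also held over the body at RPS22B (0.25, against 0.37) and RPL31B (0.19, against 0.46). Relative to the local background, RPS31 had body levels of 2.20, 2.40 and 1.74 in WT, against 2.37, 2.15 and 1.93 in rpd3Δ, and RPL37A had 1.96, 1.97 and 1.93 in WT, against 1.99, 1.87 and 1.64 in rpd3Δ. Both overlapped between genotypes. With each sample's own local background entered as offset, the log2 fold changes over the body were 0.02 for RPS31, -0.09 for RPL37A, 0.12 for RPS22B and 0.26 for RPL31B, and that of RPL22A upstream was 0.16. None of these 5 genes passed in that fit, in which 0 members were called in either window and either direction. Among all genes the offset left 0.1% higher and 0.184% lower upstream, and 0.769% and 1.22% over the body. At an unadjusted p under 0.05 it gave 3 members higher (2.19%, beside 2.55% of all genes) and 5 lower (3.65%, beside 8.24%) upstream. Over the body it gave 4 higher (2.92%, beside 6.08%) and 5 lower (3.65%, beside 6.70%), and no other tool was run with this offset.

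The 17 members of that arm shared the direction of their surroundings. Their median log2 fold change was 0.25 in both windows, with 14 of 17 above 0 upstream and 17 of 17 over the body. All genes of the arm had medians of 0.20 upstream and 0.26 over the body, with 380 of 456 and 386 of 455 above 0. The share of members that rose was 17.6% upstream and 23.5% over the body, beside 15.6% and 27.7% of all genes of the arm. Relative to the local background the members' medians were -0.03 and -0.01, with 6 of 17 above 0 upstream and 7 of 17 over the body. The 120 members elsewhere had medians of -0.01 upstream and 0.03 over the body, and 0 of them passed by edgeR in either window. DESeq2 also called 0. Over all genes, the arm included, 2% rose and 4.34% fell upstream, and 4.35% rose and 3.14% fell over the body. Of the genes that rose, 71 of 120 upstream and 126 of 260 over the body lay on the arm. Of those that fell, 1 of 260 and 5 of 188 did. At an unadjusted p under 0.05, 7 members off the arm were higher upstream (5.83%, beside 6.73% of all genes). There 4 were lower (3.33%, beside 12.9%). Over the body 8 were higher (6.67%, beside 12.3%) and 3 lower (2.5%, beside 8.69%). The shares of all genes include the arm, so this is not a like comparison. The arm held 157 of the 403 genes higher upstream at that p and 235 of the 733 over the body. Of the lower genes it held 8 of 773 and 11 of 520.

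**Figure D5:**
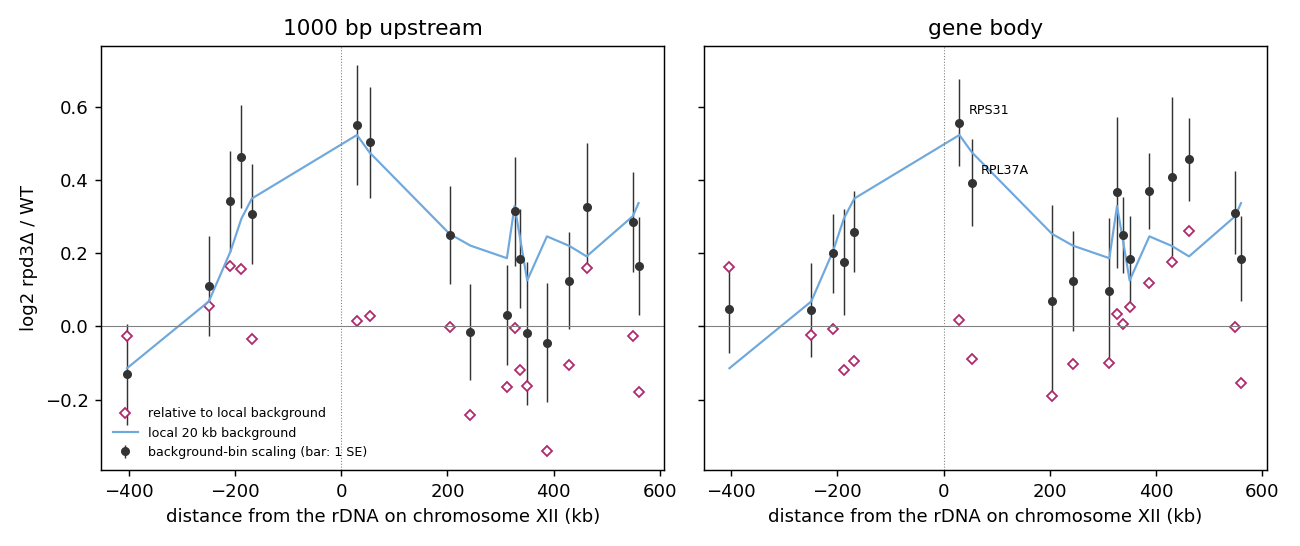
Log2 ratio of rpd3Δ to WT (vertical axis) of the 18 ribosomal protein genes of chromosome XII by distance from the rDNA (kb, negative toward the left end), upstream (left) and over the gene body (right). Black points with bars of 1 SE use scaling on background bins, open diamonds are relative to the local background, and the line is the background itself. RPS31 and RPL37A follow the line at 0.52 and 0.47, and their diamonds lie near 0.

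Other members had large changes that missed the threshold. Upstream of RPL3 (YOR063W, chromosome XV, 444686 to 445849) the level was 1.91, 1.71 and 1.29 in WT, against 1.30, 1.38 and 1.21 in rpd3Δ, with a log2 change of -0.39 (SE 0.135, edgeR adjusted p = 0.0604). WT sample 3 lay among the rpd3Δ samples, and without it the value was -0.52 (edgeR adjusted p = 0.0101). Upstream of RPP1A (YDL081C, chromosome IV, 309802 to 310122) the level was 1.13, 1.14 and 0.984 in WT, against 1.53, 1.57 and 1.47 in rpd3Δ. These groups did not overlap, and the log2 change was 0.36 (SE 0.131, edgeR adjusted p = 0.0810) on background bins and 0.48 relative to the local background (edgeR adjusted p = 0.120). RPS7B had an upstream log2 change of 0.36 (edgeR adjusted p = 0.0783) and RPS0B, on chromosome XII, one of 0.34 (edgeR adjusted p = 0.124). The RPS0B background had a log2 ratio of 0.20, and relative to it RPS0B had 0.16. Without rpd3Δ sample 2 the RPS0B value was 0.10, and it passed without rpd3Δ sample 1 (0.42, edgeR adjusted p = 0.0458) or sample 3 (0.48, edgeR adjusted p = 0.0222). RPP1A, RPS7B and RPS0B passed with library sizes set on the tested windows, with edgeR adjusted p of 0.0322, 0.0275 and 0.0352. Over 500 bp upstream their log2 changes were 0.22, 0.22 and 0.46, with edgeR adjusted p of 0.646, 0.637 and 0.174. In the part outside other genes they were 0.29, 0.23 and 0.40, with edgeR adjusted p of 0.476, 0.563 and 0.183. The other upstream values at the lower end were RPL22B at -0.40, RPS4A and RPS14A at -0.34 each, RPS1B at -0.29 and RPL12B at -0.28, with edgeR adjusted p from 0.119 to 0.689. Without rpd3Δ sample 1, RPS4A passed (-0.50, edgeR adjusted p = 0.0265).

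Over the body, RPL29, a gene of 180 bp whose product aids subunit joining, had the lowest log2 fold change, -0.65 (SE 0.250, edgeR adjusted p = 0.106). RPP1A had -0.40, RPS27B -0.38 and RPL32 -0.34, and none passed. Leaving out each sample, RPP1A ran from -0.60 to -0.12 (without rpd3Δ sample 2) and RPL32 from -0.55 (without WT sample 1) to -0.16 (without WT sample 3). RPS27B passed without WT sample 3 (-0.52, edgeR adjusted p = 0.0243). On the upper side RPS26B had 0.45 (SE 0.153, edgeR adjusted p = 0.0592) and RPS29A, on chromosome XII, 0.41 (SE 0.218, edgeR adjusted p = 0.279). The RPS29A background had a log2 ratio of 0.22, and relative to it RPS29A had 0.18. RPS26B had body levels of 2.47, 2.18 and 1.67 in WT, against 2.63, 2.46 and 2.40 in rpd3Δ, which overlap.

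Counting members whose 3 rpd3Δ levels all lay on the same side of all 3 WT levels gave shares near those of all genes. Upstream 6 members (4.38%, beside 4.10%) lay above and 14 (10.2%, beside 10.6%) below. Over the body 11 (8.03%, beside 8.95%) lay above and 10 (7.30%, beside 8.79%) below.

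Other genes were read from lists. The list of regulators was broad, and beside regulators of ribosomal protein genes it held genes of Rpd3 complexes and of forkhead factors. Among the 39 genes of the regulator list, 0 rose and 1 fell upstream, and 3 rose and 0 fell over the body by edgeR. Over all genes, 2% rose and 4.34% fell upstream, and 4.35% rose and 3.14% fell over the body. DESeq2 gave the same counts. At an unadjusted p under 0.05, 2 were higher (beside 6.73% of all genes) and 1 lower (beside 12.9%) upstream. Over the body 3 were higher (beside 12.3%) and 0 lower (beside 8.69%). The regulators that rose over the body were FHL1, IFH1 and RAP1. FHL1, on chromosome XVI, went from a body level of 0.853 ± 0.0630 in WT to 1.22 ± 0.0686 in rpd3Δ (SD, n = 3), with a log2 change of 0.63 (SE 0.0998, edgeR adjusted p = 1.66e-05) and 0.52 relative to the local background (edgeR adjusted p = 0.00142). Upstream FHL1 had the highest level of the list, 3.11 ± 0.373 and 2.95 ± 0.720, and a log2 fold change of 0.01. IFH1, on chromosome XII, rose over the body by 0.42 and had 0.10 relative to the local background, where it did not pass (edgeR adjusted p = 0.646). RAP1 rose by 0.32 and had 0.16 relative to the local background (edgeR adjusted p = 0.484). LST8, a TOR complex gene, fell upstream by 0.47 and did not pass relative to the local background.

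Of 9 dedicated chaperones of ribosomal proteins, 1 rose upstream (FAP7, log2 fold change 0.43) and 1 over the body (TSR2, the partner of Rps26, on chromosome XII, 0.59), and 0 fell in either window by edgeR. Relative to the local background neither passed, with 0.32 for FAP7 (edgeR adjusted p = 0.369) and 0.22 for TSR2 (edgeR adjusted p = 0.540). DESeq2 also called 0 as lower in both windows. At an unadjusted p under 0.05, 3 were higher (beside 6.73% of all genes) and 1 lower (beside 12.9%) upstream. Over the body 3 were higher (beside 12.3%) and 0 lower (beside 8.69%). Relative to the local background, 1 was higher upstream (beside 2.55%) and 1 over the body (beside 6.08%) at that p. Called by edgeR over all genes were 2% higher and 4.34% lower upstream, and 4.35% higher and 3.14% lower over the body. Among the 75 mitochondrial ribosomal protein genes 1 rose and 2 fell upstream, and 0 rose and 1 fell over the body. At an unadjusted p under 0.05, 7 were higher (beside 6.73% of all genes) and 6 lower (beside 12.9%) upstream. Over the body 0 were higher (beside 12.3%) and 4 lower (beside 8.69%), and DESeq2 called 0 in either direction there. The 4 genes called by edgeR were MRPL4 (0.49, chromosome XII), MRP10 (-0.57) and MRPL39 (-0.48) upstream and RSM19 (-1.01) over the body. None of the 4 passed relative to the local background, with edgeR adjusted p of 0.691, 0.264, 0.296 and 0.152. Of the 26 other highly transcribed genes 1 rose and 2 fell upstream (beside 2% and 4.34% of all genes). Of the same 26, 2 rose and 5 fell over the body (beside 4.35% and 3.14%). Over the body TDH2 (-0.63) and TPI1 (-0.59), both glycolytic, fell most, and STM1 (0.72) and YEF3 (0.42), both on chromosome XII, rose. Relative to the local background 3 of the 26 passed as lower over the body (beside 1.22% of all genes), TDH2 and TPI1 among them. STM1 (0.11, edgeR adjusted p = 0.758) and YEF3 (0.18, edgeR adjusted p = 0.185) did not pass in that fit. The median over the body was -0.05 in that list and 0.07 in the cytosolic ribosomal protein genes. The difference between the lists was not tested.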

How the data were processed

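Chromatin immunoprecipitation DNA was sequenced from 3 WT and 3 rpd3Δ samples. The authors deposited, per sample, read counts in 241434 bins of 50 bp; Bowtie2, SAMtools, bedtools and build R64 are named per the submitters' processing notes, with versions not given in the sources used here. How reads matching several places were handled is likewise not stated there. A read that crosses a bin border may count in each bin.

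Bins were assigned by midpoint to the 1000 bp upstream of each start codon and to each gene body of the R64 gene table. Left out were 376 bins of the rDNA (451536 to 469181 on chromosome XII, and adjoining bins over 20 times the genome median in every sample). The local background was the median of 11-bin running means in the surrounding 20 kb. Windows with a mean of at least 10 counts were tested with edgeR 4.0.16 in R 4.3.3 (quasi-likelihood, Benjamini-Hochberg over all genes), with TMM library sizes over 1193 bins of 10 kb. The standard error is the log2 fold change divided by the root of the F statistic. DESeq2 1.42.0, other scalings, the local background as offset, other windows, leaving out each sample and pooling WT samples 1 and 2 were alternatives. Other steps used Python 3.11.15, numpy 2.4.6, pandas 2.3.3 and matplotlib 3.10.9, and the test was checked on simulated data. Of simulated falls and rises of 0.58 on the log2 scale, it recovered 76% and 82% upstream, and 66% and 76% over the body. The simulation held no regional shift of the background. Summed counts per sample, rDNA included, ran from 3987250 to 6785491, and the median bin held 7 to 12 counts.

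The members and lists were chosen with earlier results of these data known. Named were the 10 highest and 5 lowest members upstream, the 5 highest and 3 lowest over the body, the 6 largest changes upstream and the 4 over the body in each direction, all members past the threshold, the 4 most and 2 least different paralog pairs, the stalk genes, and up to 4 passing genes of each other list. The gene table lists no introns: 57 genes have a length that is no multiple of 3, and 32 were assigned an intron from general knowledge. Promoter sequences and motifs were not analysed here. A result that names a withheld gene is not reported here.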

Additional observations from a re-analysis of the deposited data

How the results depend on the processing

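The members called higher upstream (3) became 6 with TMM over the tested windows and 0 with the local background as offset, with WT samples 1 and 2 pooled, with 500 bp upstream or with the part outside other genes, and ranged from 0 to 4 leaving out each sample. Those called lower upstream (0) ranged from 0 to 1 leaving out each sample. The members called higher over the body (4) became 0 with the local offset and 2 with the pooled samples, and ranged from 1 to 6 leaving out each sample; those called lower (0) ranged from 0 to 1. Of the calls, 0 of 3 upstream and 1 of 4 over the body (RPS31) held without every sample in turn. RPL37A over the body reversed to -0.0902 with the local offset. With the level threshold at 2 times the background, 9 members reached it upstream (29 in the report), or 6.57%, beside 5.15% of all genes. Over the body 14 did (54 in the report), or 10.2%, beside 2.13%. With the mean as background the numbers were 19 upstream (13.9%, beside 8.52%) and 35 over the body (25.5%, beside 3.70%). With the background over 50 kb they were 35 (25.5%, beside 13.7%) and 62 (45.3%, beside 7.25%). Without the first 300 bp of the body, an alternative chosen after seeing the data, 47 of 116 members (40.5%) passed, beside 4.46% of all genes. Over all genes, TMM over the tested windows gave 227 higher and 210 lower upstream (120 and 260 in the report), and the local offset gave 46 and 73 over the body (260 and 188). The labels share replicate numbers, but not every same-numbered pair deviated together (correlations of 0.136, -0.0447 and 0.246 upstream), so they were not taken as pairs. With a replicate block, 1 member was called lower upstream (RPL3, -0.38, edgeR adjusted p = 0.0357), 3 were called higher upstream and 6 over the body. The cause of these changes was not tested. No motif search was run. Counts as low as 10 per gene body limit what could be detected at short genes.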
